A study of Mus musculus with 21 samples.

Results

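Plasma cells are kept in their antibody-secreting state by a small group of transcriptional regulators, and 9 genes of this group were followed here in IgA+ plasma cells (PCs) sorted from the mouse small intestine. The genes are *Irf4*, *Prdm1*, *Xbp1*, *Ell2*, *Pou2af1*, *Pou2f2*, *Zbtb20*, *Ikzf1* and *Ikzf3*. They were picked by name for their known role, with earlier results of these data known, and each symbol matched 1 of the 53801 genes counted. The 9 genes all passed the filter of at least 10 counts over all libraries, as did 20256 genes in total. The study asked whether the gene expression of these cells differs with the time of day and whether such differences need the clock gene *Arntl*, which encodes Bmal1.

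Bulk RNA-seq was available for 21 C57BL/6 mice, each giving 1 library of CD138+ IgA+ cells. Control mice were Mb1Cre-/- x Arntl fl/fl and were taken at Zeitgeber time (ZT) 0, lights on (n = 6), or at ZT12, lights off (n = 6). Knockout mice were Mb1Cre+/- x Arntl fl/fl and were taken at ZT0 (n = 4) or ZT12 (n = 5). All groups therefore carried the floxed *Arntl* alleles and differed in the Cre, which sits in the *Cd79a* (Mb1) locus and is active in the B cell lineage from early stages, so that *Arntl* was lost before the plasma cell stage and 1 copy of *Cd79a* was disrupted. Ages were not given in the sources used here. Genotypes were read from the sample titles, because the genotype field of most knockout samples names the control genotype. *Cd79a* lay between 386 and 586 CPM (read counts scaled to the library's total after TMM adjustment) in the 12 control libraries and between 163 and 276 CPM in the 9 knockout libraries, so that this gene went with the titles. *Arntl* ranged at ZT0 from 6.83 to 8.36 CPM in control and from 4.08 to 6.47 CPM in knockout libraries, and at ZT12 from 4.00 to 5.56 CPM and from 3.11 to 4.93 CPM. *Arntl* did not pass the edgeR test between genotypes, described below, at either time. The counts include exons outside the floxed part, and the deletion itself was not measured from them. The paper reports efficient deletion in IgA+ PCs from RT-PCR.

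Between 14471018 and 22785835 reads per library were counted on genes, of which immunoglobulin genes took 51.5% to 63.6%. The labelled cell type was checked against its markers. *Igha* (304433 CPM on average over the 21 libraries), *Jchain* (48827 CPM) and *Sdc1*, which encodes CD138 (576 CPM), were abundant, and the B cell genes *Ms4a1* (1.45 CPM) and *Pax5* (0.543 CPM) were near 0. A few libraries stood apart from the rest. Control ZT12 replicate 2 had the highest immunoglobulin share (63.6%), followed by control ZT12 replicate 4 (59.5%), knockout ZT0 replicate 3 (59.4%) and control ZT12 replicate 5 (59.1%). In these libraries long genes were also relatively low. The slope of each library's log2 CPM, taken as the deviation from the mean of all libraries, on log2 gene length was -0.254, -0.150, -0.131 and -0.069 per doubling of length in these 4 libraries, and it lay between 0.025 and 0.103 in all 6 control ZT0 libraries. Control ZT12 replicate 3 had a slope of -0.066 at an immunoglobulin share of 53.3%. Knockout ZT0 replicate 3 also held both *Xist*, the RNA of the inactive X chromosome (428 CPM), and Y chromosome RNA (36.4 CPM summed). Knockout ZT12 replicate 5 held 344 CPM of *Xist* and 5.80 CPM of Y chromosome RNA, and the other libraries with high *Xist* had at most 1.48 CPM of the latter. *Xist* was at least 329 CPM in 10 libraries and at most 3.51 CPM in the other 11, and the groups held 3 of 6, 3 of 6, 2 of 4 and 2 of 5 libraries with high *Xist*.

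The regulators form a cascade that is well described in B cells. IRF4 starts the programme and turns on *Prdm1*. BLIMP-1, the product of *Prdm1*, silences B cell genes and drives secretion, and XBP1 builds the endoplasmic reticulum and the secretory machinery. ELL2 is an elongation factor that favours the secreted form of immunoglobulin heavy chain mRNA. OCT2 (*Pou2f2*) and its coactivator OBF-1 (*Pou2af1*) bind the octamer of immunoglobulin promoters. ZBTB20 supports plasma cell survival, and Ikaros (*Ikzf1*) and Aiolos (*Ikzf3*) are zinc finger factors that work with the NuRD chromatin complex.

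In the coordinates of the deposited table, which equal those of GENCODE M21 on GRCm38 for all 9 genes, *Xbp1* (ENSMUSG00000020484) lies on chromosome 11 from 5520659 to 5525893 on the + strand. *Prdm1* (ENSMUSG00000038151) lies on chromosome 10 from 44437177 to 44528501 on the - strand. *Irf4* (ENSMUSG00000021356) lies on chromosome 13 from 30749226 to 30766976 on the + strand and *Ell2* (ENSMUSG00000001542) on the same chromosome from 75706757 to 75772364, also on the + strand. *Pou2af1* (ENSMUSG00000032053) lies on chromosome 9 from 51213708 to 51240080 on the + strand and *Pou2f2* (ENSMUSG00000008496) on chromosome 7 from 25087344 to 25179726 on the - strand. *Zbtb20* (ENSMUSG00000022708) spans 766722 bases of chromosome 16, from 42875881 to 43642602 on the + strand, and is the longest of the 9. *Ikzf1* (ENSMUSG00000018654) lies on chromosome 11 from 11685003 to 11772926 on the + strand and *Ikzf3* (ENSMUSG00000018168) on chromosome 11 from 98464902 to 98546031 on the - strand. Their exons, merged over all transcripts, add up to between 2549 bases (*Pou2af1*) and 30730 bases (*Zbtb20*). The library kit does not mark strand, but genes that share exon bases with *Ell2*, *Pou2f2* or *Zbtb20* had at most 9 counts in any library.

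XBP1 becomes active when the sensor IRE1 cuts a short stretch out of the *Xbp1* mRNA and shifts the reading frame. The stretch is shown because a count per gene takes cut and uncut *Xbp1* mRNA together, so that nothing below separates the inactive from the active form. It lies in exon 4 of the 5 exons of the transcript Xbp1-201, is 26 bases long and covers chr11:5524279-5524304 on the + strand of GRCm38. The 26 bases are in capitals, with 17 flanking bases on each side, as read from the GENCODE M21 transcript. They were found by a cleavage motif, C-N-G before CAGC, at both ends, which occurs at this distance once in each of the 3 coding transcripts.
Xbp1 mRNA: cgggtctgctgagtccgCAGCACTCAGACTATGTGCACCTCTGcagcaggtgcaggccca

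The RefSeq promoter table of GRCm38.p6 held 9 promoters of 8 of the genes, each from 250 bases before to 50 bases after a start. *Ikzf3* had no entry. Both strands were searched for 10 motifs. The clock-related motifs CACGTG (the E-box, in 7.15% of all 32851 promoters), TTANGTAA (the D-box, 2.32%) and AGGTCA (part of ROR elements, 16.3%) were in none of the 9 promoters. Among the motifs of the regulators themselves, the octamer ATGCAAAT (1.74% of promoters), the interferon-stimulated response element that IRF factors bind (3.44%) and the endoplasmic reticulum stress element, CCAAT and CCACG with 9 bases between them (0.119%), were also in none. TGACGTGG, the unfolded protein response element that XBP1 can bind (0.676% of promoters), was in the promoter of *Pou2af1*. The ETS-IRF composite element, bound by ETS factors together with IRF4 (2.72%), was in that of *Pou2f2*. TGGGAA, the core of Ikaros sites (25.6%), was in those of *Xbp1*, *Prdm1* and *Zbtb20*, and GAAAG, the core of BLIMP-1 sites (57.3%), was in 5 of the 9. A match is a run of letters and was not tested for binding. The 3 stretches below are shown because they hold letters that a factor among the 9 can bind, before a start of another of the 9 genes. The matches are in capitals. Except for *Xbp1* and *Pou2af1*, the starts used lie inside the spans of the genes given above, that of *Irf4* near its edge. Starts without an entry were not searched.
Pou2af1, chr9:51213590-51213689, + strand: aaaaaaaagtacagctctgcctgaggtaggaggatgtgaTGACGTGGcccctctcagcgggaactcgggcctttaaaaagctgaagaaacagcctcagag
Pou2f2, chr7:25132536-25132610, - strand: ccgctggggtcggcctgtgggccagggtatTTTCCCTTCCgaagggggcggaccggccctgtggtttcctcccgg
Xbp1, chr11:5520491-5520595, + strand: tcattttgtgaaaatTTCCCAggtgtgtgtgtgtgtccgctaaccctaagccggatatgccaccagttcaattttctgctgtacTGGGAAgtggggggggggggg

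Per length, the 9 genes covered a wide range of levels. Levels between genes are given as CPM divided by the length of the merged exons in kilobases (RPKM). *Xbp1* was the most abundant, with a mean of 676 RPKM over the 21 libraries (range 571 to 931), and ranked 150 of the 20256 genes tested. *Pou2af1* followed with 330 RPKM (271 to 407) and was lower than *Xbp1* in all 21 libraries, with no overlap of their ranges. *Irf4* (80.1 RPKM, 55.3 to 108) and *Prdm1* (50.1 RPKM, 40.6 to 64.4) overlapped, with *Irf4* higher in 19 of 21 libraries. *Ell2* (35.3 RPKM, 28.9 to 39.3) lay below both. The Ikaros pair, *Ikzf1* (17.3 RPKM, 11.6 to 22.6) and *Ikzf3* (17.1 RPKM, 11.6 to 20.8), could not be ordered, since *Ikzf1* was higher in 11 of 21 libraries. *Pou2f2* (3.20 RPKM, 2.58 to 4.24) and *Zbtb20* (1.79 RPKM, 0.947 to 3.14) were the lowest, and *Pou2f2* was the higher of these in all 21 libraries although their ranges overlapped. The RPKM of *Zbtb20* rests on merged exons of 30730 bases, which no single transcript holds in full. Without length scaling the mean of *Zbtb20* was above that of *Pou2f2*, though not in control ZT12 replicate 2 (479 and 518 counts), and only 3 of the 9 genes kept their rank.

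**Figure D1:**
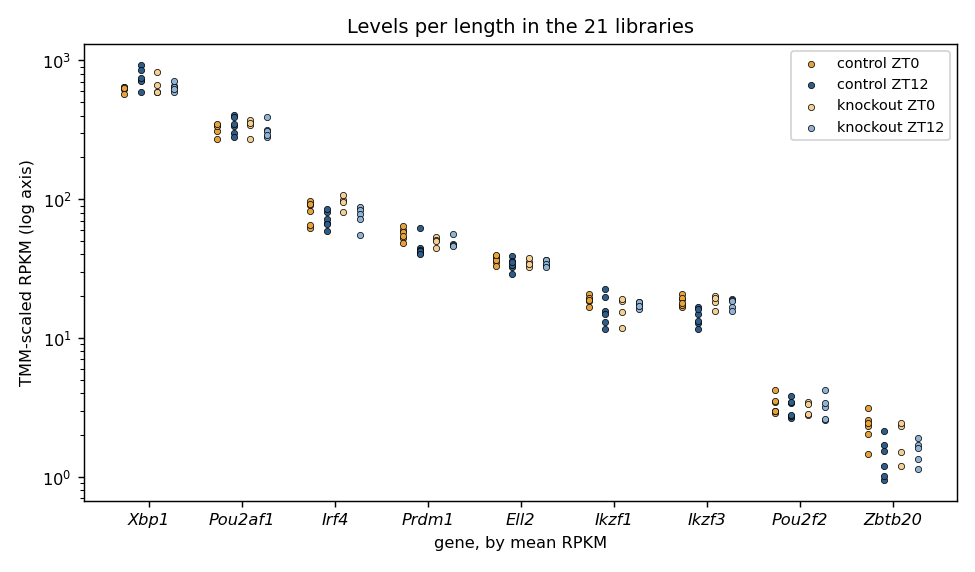
TMM-scaled RPKM (log axis) of the 9 genes in the 21 libraries, with 1 point per library coloured by group and genes ordered by their mean. *Xbp1* and *Pou2af1* are at least 271 RPKM in every library, and *Pou2f2* and *Zbtb20* at most 4.24 RPKM.

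The spread differed between the genes. Over all 21 libraries the coefficient of variation of the CPM was lowest for *Ell2* (7.63%) and highest for *Zbtb20* (33.0%), and it was at least 12.1% for the other 7 genes. Within groups it ran from 4.45% (*Xbp1* in control ZT0 libraries) to 32.5% (*Zbtb20* in knockout ZT0 libraries), and for *Ikzf1* it was 6.92% in control ZT0 and 25.4% in control ZT12 libraries. The highest *Zbtb20* library was 3.32 times the lowest. For every other gene this ratio was at most 1.95.

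Control PCs at ZT12 were compared with control PCs at ZT0 to ask whether the regulators change over the day when the clock is intact. *Ikzf3* was lower at ZT12 by 22.8% and was the only one of the 9 genes to pass the test, at 1 of 9 beside 1.73% of all genes tested (350 of 20256). *Prdm1* was lower by 19.0% and *Zbtb20* by 38.7%, and *Xbp1* was higher by 21.8%, and none of these passed in edgeR. DESeq2 called 4 of the 9 genes, namely *Ikzf3*, *Zbtb20*, *Xbp1* and *Prdm1*, beside 5.19% of all genes (1052 of 20256). The other 5 genes differed by at most 13.7%. The main test was edgeR's quasi-likelihood test with Benjamini-Hochberg adjustment over all 20256 genes and a threshold of 0.05. At an unadjusted p under 0.05 the count was 4 of 9 (*Ikzf3*, *Zbtb20*, *Prdm1* and *Xbp1*), beside 18.1% of all genes. The groups overlapped for all 9 genes, and 1.6% of all genes had groups that did not. The median log2 fold change was -0.19 over the 9 genes, 7 of which were lower at ZT12, and 0.006 over all genes. Of these 7, *Ell2* (0.018) and *Ikzf1* (0.093) were higher with the immunoglobulin share as a covariate. *Ell2* (0.030) and *Pou2f2* (0.051) were higher after removal of the trend on gene length. *Pou2af1* turned lower by library size alone (-0.13) and without that trend (-0.00096). Among all genes called, 192 were higher and 158 lower at ZT12. Scaling by DESeq2's size factors gave 206 and 125, and scaling by library size alone 48 and 398.

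**Figure D2:**
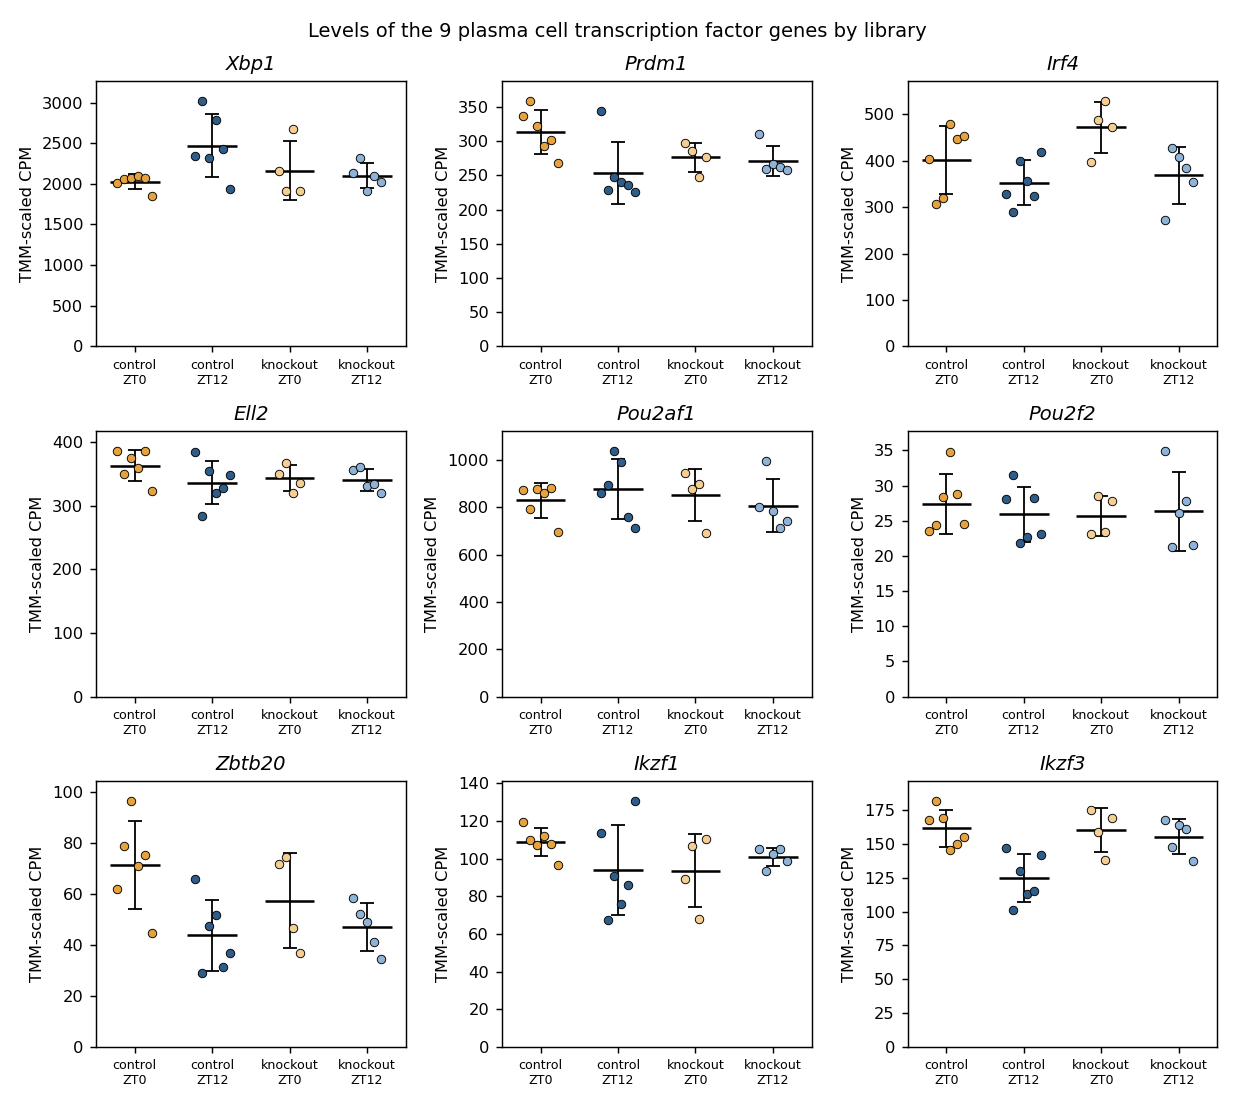
TMM-scaled CPM of each gene by library (points), with the mean (line) and SD (bars) of control ZT0 (n = 6), control ZT12 (n = 6), knockout ZT0 (n = 4) and knockout ZT12 (n = 5). The *Ikzf3* values of control ZT12 lie lowest of the 4 groups and overlap control ZT0 in 1 library, and the 1 high control ZT12 point of *Prdm1* is replicate 1.

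*Irf4*, the factor at the start of the cascade, ranged in control PCs from 306 to 479 CPM at ZT0 (median 424) and from 289 to 418 CPM at ZT12 (median 342). All 6 ZT12 libraries lay below the ZT0 median, and 1 of them below every ZT0 library. The log2 fold change was -0.19 ± 0.13 (SE, adjusted p = 0.444). Scaling by library size alone gave -0.38 ± 0.15 (edgeR, adjusted p = 0.139), and the immunoglobulin share as a covariate -0.12 ± 0.15 (adjusted p = 0.881). The 4 knockout libraries of ZT0 held 398, 487, 529 and 472 CPM of *Irf4*, and the 5 of ZT12 held 271, 428, 407, 383 and 354 CPM. Of the 5 ZT12 libraries, 3 lay below every ZT0 library. Its fold change of -0.35 ± 0.15 had the smallest p of the 9 genes in this genotype (edgeR, unadjusted p = 0.0220, adjusted p = 0.612) and did not pass. *Irf4* also varied with *Xist*: its median was 326 CPM in the 10 libraries with high *Xist* and 428 CPM in the other 11. The highest value, 529 CPM in knockout ZT0 replicate 3, came with high *Xist*. With *Xist* as a covariate the SE of *Irf4* in control PCs fell to 0.098 and the fold change stayed at -0.19. With the run of columns, described below, as a term instead, the SE was 0.090 and the fold change -0.23.

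*Prdm1* ranged in control PCs from 268 to 359 CPM at ZT0 (median 312) and from 226 to 344 CPM at ZT12 (median 238). Apart from ZT12 replicate 1, at 344 CPM, all ZT12 libraries lay between 226 and 247 CPM and below every ZT0 library. The log2 fold change was -0.30 ± 0.10 (SE, adjusted p = 0.126) in all libraries and -0.41 ± 0.090 (adjusted p = 0.0108) without that library. DESeq2 gave -0.28 ± 0.097 (adjusted p = 0.0473) with all libraries. With edgeR, scaling by library size alone gave -0.50 ± 0.14 (adjusted p = 0.0536), and the immunoglobulin share as a covariate -0.18 ± 0.11 (adjusted p = 0.700). *Prdm1* in the knockout libraries came to 297, 286, 247 and 277 CPM for ZT0 and to 311, 260, 266, 262 and 258 CPM for ZT12, and the fold change was -0.03 ± 0.12 (edgeR, adjusted p = 0.976).

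*Xbp1* ranged in control PCs from 1855 to 2102 CPM at ZT0 (median 2064) and from 1933 to 3022 CPM at ZT12 (median 2384). Of the 6 ZT12 libraries, 5 lay above every ZT0 library, and the highest was replicate 2, at 3022 CPM. The log2 fold change was 0.28 ± 0.10 (SE, adjusted p = 0.143), 0.22 ± 0.094 (adjusted p = 0.285) without replicate 2, and 0.35 ± 0.097 (adjusted p = 0.0442) without replicate 6 of ZT12. DESeq2 gave 0.31 ± 0.10 (adjusted p = 0.0379), and scaling by library size alone, which moved the median of all genes by -0.20, gave 0.056 ± 0.085 (edgeR, adjusted p = 0.734). Knockout libraries held 2159, 1908, 2672 and 1915 CPM of *Xbp1* when taken at ZT0, and 2135, 2323, 1908, 2098 and 2027 CPM when taken at ZT12, with a fold change of -0.04 ± 0.12 (edgeR, adjusted p = 0.951). The highest knockout value was that of ZT0 replicate 3.

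*Ell2* lay between 284 and 386 CPM in all 21 libraries and was the least variable of the 9 genes. Its log2 fold change was -0.11 ± 0.084 (SE, adjusted p = 0.513) in control PCs and -0.01 ± 0.098 in knockout PCs (edgeR, adjusted p = 0.991). The 95% intervals, by a normal approximation, ran from -0.27 to 0.06 and from -0.20 to 0.18. *Pou2af1* lay between 690 and 1038 CPM, and its fold change was 0.08 ± 0.11 (adjusted p = 0.749) in control and -0.08 ± 0.12 (adjusted p = 0.909) in knockout PCs. *Pou2f2*, with 284 to 630 counts per library, lay between 21.2 and 35.0 CPM, and its fold change was -0.08 ± 0.12 (adjusted p = 0.788) and 0.04 ± 0.14 (adjusted p = 0.972). For these partners of the octamer complex the 95% intervals were -0.13 to 0.29 and -0.32 to 0.17 (*Pou2af1*) and -0.32 to 0.17 and -0.25 to 0.32 (*Pou2f2*).

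*Zbtb20* had the largest fold change of the 9 genes and the widest spread. In control PCs it ranged from 44.7 to 96.6 CPM at ZT0 (median 73.3) and from 29.1 to 66.1 CPM at ZT12 (median 42.2). All 6 ZT12 libraries lay below the ZT0 median and 3 below every ZT0 library. The log2 fold change was -0.71 ± 0.22 (SE, adjusted p = 0.115), and -0.86 ± 0.22 (adjusted p = 0.0321) without control ZT12 replicate 1. DESeq2 gave -0.69 ± 0.21 (adjusted p = 0.0204). With the immunoglobulin share as a covariate the value was -0.45 ± 0.27 (edgeR, adjusted p = 0.693). The knockout libraries had 71.7, 74.7, 46.7 and 36.8 CPM of *Zbtb20* for ZT0 and 58.6, 52.3, 49.2, 41.0 and 34.7 CPM for ZT12. The fold change was -0.29 ± 0.26 (edgeR, adjusted p = 0.808). It was -0.46 without knockout ZT0 replicate 4 and -0.15 without knockout ZT0 replicate 2. With the run of columns, described below, as a term it was -0.068.

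*Ikzf3* ranged in control PCs from 146 to 182 CPM at ZT0 (median 161) and from 101 to 147 CPM at ZT12 (median 123). Of the 6 ZT12 libraries, 5 lay below every ZT0 library, and replicate 1, at 147 CPM, lay above the lowest of them. The log2 fold change was -0.37 ± 0.098 (SE, edgeR, adjusted p = 0.0473). *Ikzf3* in the 4 knockout libraries of ZT0 came to 175, 159, 138 and 169 CPM, and in the 5 of ZT12 to 168, 147, 164, 161 and 137 CPM, and the fold change was -0.04 ± 0.11 (adjusted p = 0.951). The call in control PCs was close to the threshold: it was kept when control ZT12 replicate 1 or 6 or knockout ZT0 replicate 3 was left out and lost without each of the other 18 libraries, with adjusted p-values from 0.0136 (without control ZT12 replicate 1) to 0.128 and fold changes from -0.43 to -0.32. Of 13 other fits with all libraries it was kept in 5, DESeq2 among them (-0.35 ± 0.091, adjusted p = 0.0052). *Ikzf1* ranged from 96.6 to 120 CPM at ZT0 and from 67.2 to 131 CPM at ZT12 in control PCs, a wider spread at ZT12 on both sides. Its fold change was -0.21 ± 0.13 (adjusted p = 0.395). With the immunoglobulin share as a covariate *Ikzf1* had 0.093 ± 0.12, and by library size alone -0.39. Its knockout values were 89.3, 107, 68.2 and 110 CPM for ZT0 and 105, 93.6, 102, 105 and 98.9 CPM for ZT12, and the fold change was 0.11 ± 0.15 (adjusted p = 0.892).

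**Figure D3:**
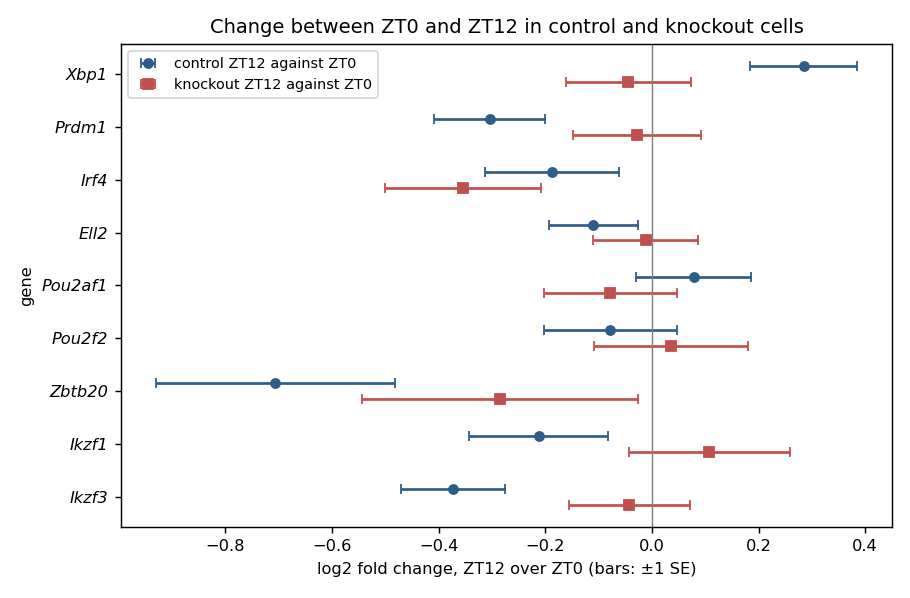
Log2 fold change of ZT12 over ZT0 for the 9 genes in control (circles) and knockout PCs (squares), with bars of 1 SE from edgeR. *Ikzf3* in control PCs, at -0.37, is the 1 value that passed the test, and *Zbtb20*, at -0.71, is the largest.

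In knockout PCs none of the 9 genes was called between ZT0 and ZT12, beside 0% of all genes (edgeR called 0 of 20256, and 1622 had an unadjusted p under 0.05). DESeq2 called 47 genes in this comparison (0.232%), none of them among the 9. At an unadjusted p under 0.05 the count was 1 of 9, *Irf4*, beside 8.01% of all genes. The groups overlapped for all 9 genes, and did not for 2.63% of all genes.

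The difference between the genotypes in their change from ZT0 to ZT12 was tested as an interaction. None of the 9 genes was called, beside 0% of all genes (edgeR called 0 of 20256, DESeq2 called 4, or 0.0197%, and 2191 had an unadjusted p under 0.05 in edgeR). *Xbp1* had an interaction of -0.33 ± 0.15 on the log2 scale (unadjusted p = 0.0421, adjusted p = 0.455) and *Ikzf3* one of 0.33 ± 0.15 (edgeR, unadjusted p = 0.0366, adjusted p = 0.451), which means that the control change was the larger in each. The value for *Xbp1* was -0.21 ± 0.15 (adjusted p = 0.830) without knockout ZT0 replicate 3, -0.11 ± 0.13 by library size alone and -0.061 ± 0.12 with the immunoglobulin share as a covariate. For *Ikzf3* it was 0.14 ± 0.14 with the share and 0.16 ± 0.11 after removal of the trend on gene length. *Xbp1* and *Ikzf3* were 2 of 9 genes with an unadjusted p under 0.05, beside 10.8% of all genes. A loss of the time-of-day difference of *Ikzf3* in knockout PCs was therefore not shown.

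The genotypes were also compared at each time. At ZT0 none of the 9 genes was called, beside 0.00987% of all genes, and none had an unadjusted p under 0.05 (4.9% of all genes did, and the fold changes of the 9 genes ran from -0.31 for *Zbtb20* to 0.23 for *Irf4*). At ZT12 none was called, beside 0.0148% of all genes. *Ikzf3* was higher in knockout PCs by 24.6% (log2 fold change 0.32 ± 0.10, SE, edgeR, unadjusted p = 0.00453, adjusted p = 0.562), and 4 of the 5 knockout libraries lay above all 6 control libraries. *Xbp1* was lower by 15.1% (-0.24 ± 0.11, unadjusted p = 0.0345, adjusted p = 0.562). These were 2 of 9 genes with an unadjusted p under 0.05, beside 8.83% of all genes. With the immunoglobulin share as a covariate the fold changes were 0.21 for *Ikzf3* and -0.088 for *Xbp1*, and by library size alone that of *Xbp1* was -0.085. The values use the same control ZT12 libraries as the comparison over time in control PCs. The genes called between genotypes were *Cd79a* and *Nr1d2*, both lower in knockout PCs at both times, and *Ighv1-38*, higher at ZT12.

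The immunoglobulin share and the length slope of the libraries moved with several of the regulators. The share was 52.8% ± 0.721 (SD, n = 6) in control PCs at ZT0 and 57.4% ± 3.99 (SD, n = 6) at ZT12, and 55.1% ± 2.91 (SD, n = 4) and 54.6% ± 0.953 (SD, n = 5) in knockout PCs. Across the 21 libraries, which share these 2 measures, the log2 CPM of *Xbp1* had a Pearson r of 0.83 with the share and -0.89 with the slope, and *Ikzf3* had -0.77 and 0.86. *Ikzf1* had -0.77 and 0.89, *Ell2* -0.72 and 0.65, *Prdm1* -0.61 and 0.64, *Zbtb20* -0.56 and 0.47 and *Pou2af1* 0.18 and -0.47. For *Irf4* (-0.26 and 0.13) and *Pou2f2* (0.07 and 0.03) both were weak. After subtraction of the group means *Xbp1* still had 0.76 and -0.84, *Ikzf3* -0.69 and 0.86, and *Ikzf1* -0.74 and 0.90. The share and the slope went together over the libraries (r = -0.87). When the trend on gene length was removed from each library, the control fold change of *Ikzf3* was -0.25 ± 0.073 (edgeR, adjusted p = 0.0680) and that of *Zbtb20* -0.43 ± 0.22 (adjusted p = 0.321). That of *Xbp1* was then 0.25 ± 0.084 (adjusted p = 0.120). With the immunoglobulin share as a covariate *Ikzf3* had -0.19 ± 0.098 (edgeR, adjusted p = 0.628) and *Xbp1* 0.05 ± 0.088 (adjusted p = 0.923), and no gene of the 20256 was called. The share was higher in control PCs at ZT12 than at ZT0, so that this fit removes part of any time-of-day difference, and the share's part in these results cannot be told apart from the time of day.

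**Figure D4:**
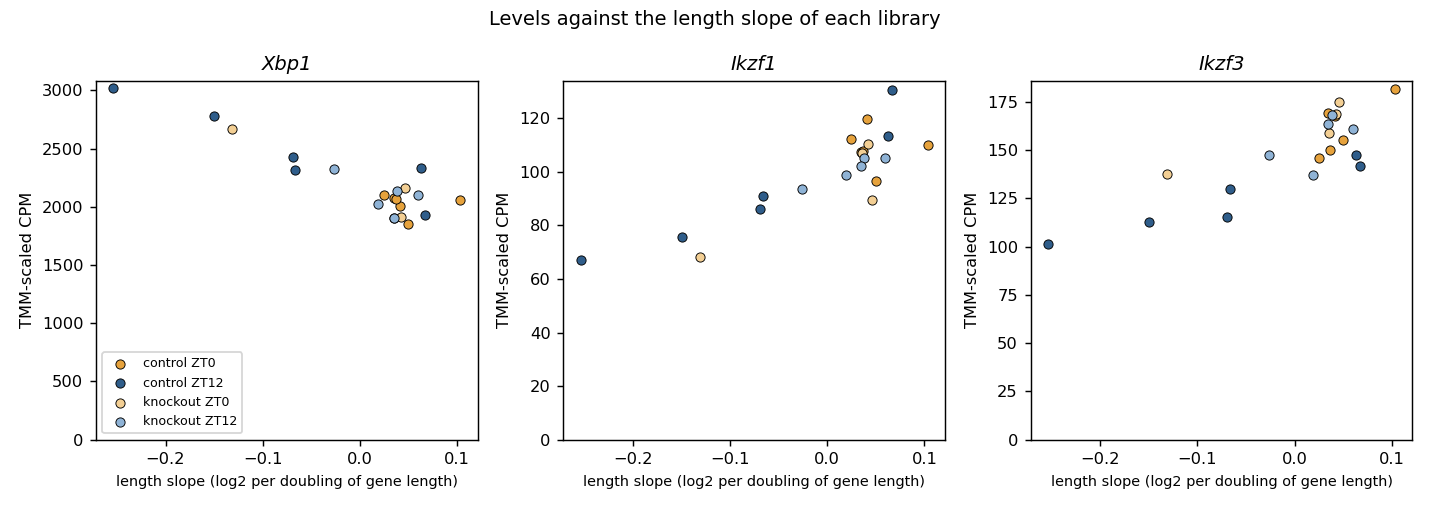
TMM-scaled CPM of *Xbp1*, *Ikzf1* and *Ikzf3* (from 0) against the length slope of each library, 1 point per library, coloured by group. Control ZT12 replicate 2, at a slope of -0.254, has the highest *Xbp1* (3022 CPM) and the lowest *Ikzf1* (67.2 CPM) and *Ikzf3* (101 CPM).

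The deposited table lists the libraries in 3 consecutive runs of 7 columns, each with all 4 groups, and what the runs stand for is not given in the sources used here. All 7 libraries of the first run had high *Xist*, and 1 and 2 of the others did. *Irf4* had its lowest mean in the first run in all 4 groups. In control PCs this was 343 CPM at ZT0, beside 463 and 453 CPM in the other runs. At ZT12 it was 309 CPM, beside 377 and 370 CPM. Within each run, *Xbp1* was higher at ZT12 than at ZT0 in control PCs (by 0.38, 0.28 and 0.22 on the log2 scale) and *Ikzf3* was lower (-0.50, -0.29 and -0.28). *Prdm1* (-0.27, -0.29 and -0.22), *Irf4* (-0.14, -0.30 and -0.30) and *Zbtb20* (-0.83, -0.56 and -0.39) were also lower in each run. These differences have no test and rest on few libraries, with 3, 2 and 1 control libraries of ZT0 and 2 of ZT12 in each run. With the run as a term, an alternative added after the data were seen, *Ikzf3* stayed called (-0.36 ± 0.094, edgeR, adjusted p = 0.0381), and *Xbp1* (0.31 ± 0.090, adjusted p = 0.0578) and *Zbtb20* (-0.59 ± 0.17, adjusted p = 0.0594) lay just over the threshold.

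**Figure D5:**
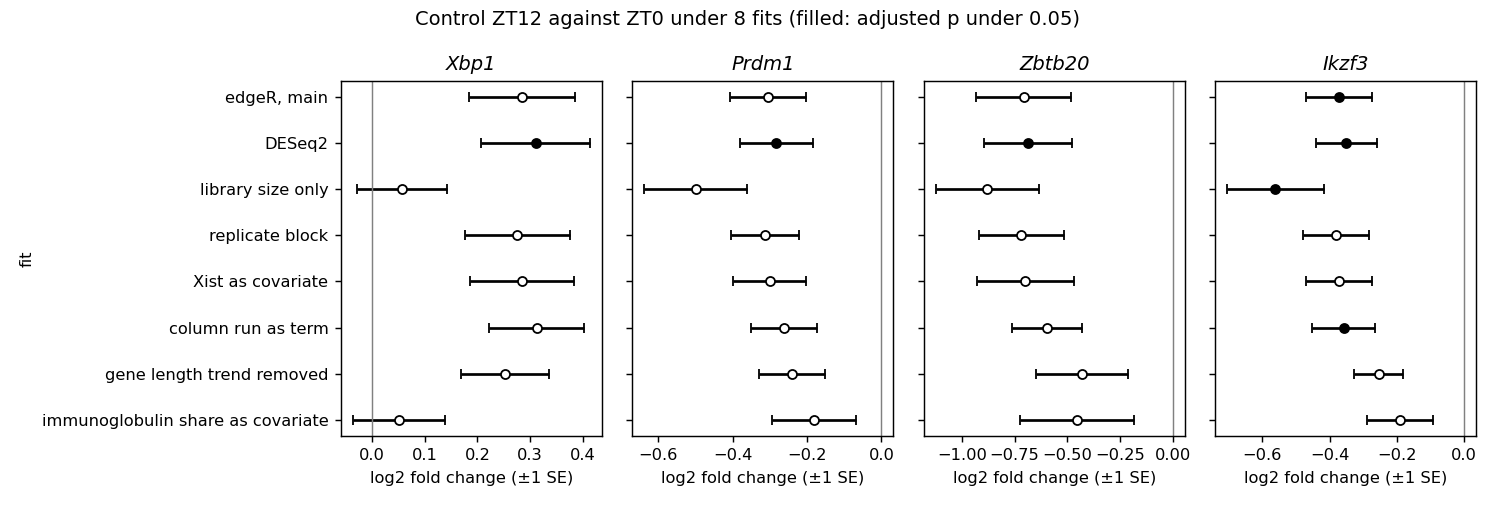
Log2 fold change of control ZT12 over ZT0 for *Xbp1*, *Prdm1*, *Zbtb20* and *Ikzf3* under 8 fits, with bars of 1 SE and filled points for an adjusted p under 0.05. The direction is the same in all of them, and the values for *Xbp1* and *Ikzf3* lie nearest to 0 with the immunoglobulin share as a covariate (0.05 and -0.19).

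The 9 genes did not vary as 1 group across libraries. The correlations below are of log2 CPM over the 21 libraries and are descriptions, since the libraries share depth, immunoglobulin share and length slope. *Xbp1* ran against *Ikzf1* (r = -0.83) and *Ikzf3* (-0.77) and with *Pou2af1* (0.56). Among *Prdm1*, *Ell2*, *Zbtb20* and *Ikzf3* the r was 0.79 for *Prdm1* and *Zbtb20*, 0.76 for *Ell2* and *Zbtb20*, 0.73 for *Prdm1* and *Ikzf3*, 0.70 for *Prdm1* and *Ell2*, 0.60 for *Zbtb20* and *Ikzf3* and 0.59 for *Ell2* and *Ikzf3*. *Ikzf1* had an r of 0.70 with *Ell2*, 0.66 with *Ikzf3*, 0.54 with *Prdm1* and 0.38 with *Zbtb20*. *Irf4* and *Pou2f2* followed none of the others closely, with r between -0.32 and 0.18 for *Irf4* and between -0.25 and 0.24 for *Pou2f2*. Within groups, the r of *Prdm1* and *Irf4* was -0.54, against -0.18 over all libraries. In every group *Prdm1* had its highest mean and *Irf4* its lowest mean in the first run of columns. The part of the run in this r was not tested.

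Over the 6934 candidate genes with a mean log2 CPM of at least 3, other than immunoglobulin genes, the closest to *Xbp1* were *Puf60*, a splicing factor (r = 0.93), and *Rpl37a*, a ribosomal protein (0.93). *Ikzf1* was closest to *Cap1*, a regulator of actin (0.94), and *Pde4b*, a cyclic AMP phosphodiesterase (0.93), and *Ikzf3* to *Akap13*, a kinase anchor (0.94), and *Hk1*, a hexokinase (0.94). *Prdm1* was closest to *Lrrc8d*, a subunit of volume-regulated anion channels (0.92), and *Tbc1d1*, a regulator of Rab proteins (0.92), and *Pou2af1* to *Ubald2* (0.91) and the lysosomal membrane protein gene *Scarb2* (0.91). *Zbtb20* was closest to *Fam135a* (0.88) and *Rgs9*, a regulator of G protein signalling (0.85). *Ell2* was closest to *Fam46c*, a poly(A) polymerase that stabilises immunoglobulin mRNA in plasma cells (0.86), and *Znrf3*, a ubiquitin ligase (0.85). *Irf4* was closest to *Slc15a4*, a lysosomal transporter (0.85), and *Srrt*, an RNA processing factor (0.83), and *Pou2f2* to *Atp2c1*, the Golgi calcium pump (0.78), and *Bcl3*, an NF-kappaB cofactor (0.75). Within groups these 18 r lay between 0.78 and 0.95.

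The genes around the regulators were described from fixed lists, and 1 gene in each of 2 lists was called in control PCs, beside 1.73% of all genes. No gene of any list was called in any other comparison. Among 20 genes of the IRE1-XBP1 axis and targets of XBP1, 1 was called higher at ZT12 and 0 lower in control PCs. This was *Rtcb*, the ligase that rejoins the cut *Xbp1* mRNA. *Rtcb* rose from 33.8 ± 2.27 CPM (SD, n = 6) to 46.6 ± 9.87 (SD, n = 6), a log2 fold change of 0.46 ± 0.11 (SE, edgeR, adjusted p = 0.0398). The call was kept in 8 of 13 other fits and without 12 of 21 libraries. The 20 genes had a median log2 fold change of 0.10 in control and 0.20 in knockout PCs, beside 0.006 over all genes in each. In both genotypes 18 of them were higher at ZT12, and 6 of 20 had an unadjusted p under 0.05, beside 18.1% of all genes in control and 8.01% in knockout PCs. Their interaction had a median of 0.05, beside 0.014 over all genes.

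Of the 13 paralogues of the regulators that were tested, none was called. *Ikzf2* (0.022 RPKM), *Ikzf4* (0.050 RPKM) and *Ell3* (0.014 RPKM) were near 0, *Pou2f3* had 0 counts in every library, and *Pou2f1*, which encodes OCT1, had a mean of 3.65 RPKM beside the 3.20 RPKM of *Pou2f2*. The CPM of *Pou2f1* were 71.2 ± 12.4 in control ZT0 and 48.2 ± 14.7 in control ZT12 libraries (SD, n = 6 each), a fold change of -0.56 ± 0.16 that did not pass (edgeR, adjusted p = 0.0845), and *Irf3* had 0.27 ± 0.11 (adjusted p = 0.188). The median of the list was 0.03 in control PCs. Of 13 transcription factors of the B cell programme none was called, and the smallest p-values were those of *Ebf1* (-0.95 ± 0.31, edgeR, adjusted p = 0.119), a B cell factor at 0.901 RPKM, and *Foxo1* (-0.38 ± 0.14, adjusted p = 0.159). In the other direction *Id3* had 2.13 ± 0.78 (adjusted p = 0.161) and *Mitf* 1.60 ± 0.60 (adjusted p = 0.165). Both were near 0, with means of 1.07 CPM (*Id3*) and 1.14 CPM (*Mitf*) over the 21 libraries. In all 7 of 13 were higher and 6 lower, 5 had an unadjusted p under 0.05 (2 higher and 3 lower, beside 18.1% of all genes), and the median was 0.006. Among factors that BLIMP-1 silences, *Pax5* (0.061 RPKM) and *Ciita* (0.237 RPKM) were low, while *Spi1*, which encodes PU.1 and is also a B cell factor, was 10.1 RPKM.

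Of 12 partners of ELL2 in elongation none was called, with *Aff1* (-0.31 ± 0.12, edgeR, adjusted p = 0.180), a scaffold of the super elongation complex, and *Cstf2* (-0.36 ± 0.14, adjusted p = 0.188), a cleavage factor of mRNA ends, the nearest. The median was -0.08, and 3 of 12 had an unadjusted p under 0.05, all lower, beside 18.1% of all genes. Of 11 NuRD subunits that work with Ikaros proteins none was called. *Chd4*, the remodelling ATPase, had 167 ± 16.0 CPM in control ZT0 and 116 ± 30.0 CPM in control ZT12 libraries (SD, n = 6 each, -0.53 ± 0.16, edgeR, adjusted p = 0.0832), and *Gatad2b* had -0.25 ± 0.11 (adjusted p = 0.216). The median of these 11 genes was 0.08, with 7 higher and 4 lower. An unadjusted p under 0.05 was found for 3 of them (1 higher and 2 lower), beside 18.1% of all genes.

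Markers of PCs and of other cells were examined beside these results. Of 10 plasma cell markers none was called in control PCs, and 4 of 10, all higher at ZT12, had an unadjusted p under 0.05, beside 18.1% of all genes. The smallest were *Fkbp11*, a chaperone of the secretory pathway (0.53 ± 0.14, edgeR, adjusted p = 0.0559), and *Igkc*, the kappa constant region (0.38 ± 0.12, adjusted p = 0.104), and the list had a median of 0.17. Between genotypes at ZT12, 8 of 10 were lower in knockout PCs (median -0.12), 3 of them with an unadjusted p under 0.05, beside 8.83% of all genes. Of 9 markers of other B cells none was called, with a median of -0.30, led by *Cr2* (-0.93 ± 0.44, adjusted p = 0.260) and *Ighm* (0.86 ± 0.43, adjusted p = 0.300). *Ighm*, which IgM plasma cells also express, made up most of their sum, which had medians of 199, 375, 306 and 186 CPM in control ZT0, control ZT12, knockout ZT0 and knockout ZT12 libraries.

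Of 10 epithelial markers tested none was called, but all 10 were higher at ZT12 in control PCs (median 2.91) and 6 of 10 had an unadjusted p under 0.05, beside 18.1% of all genes, led by *Fabp1* (means of 0.072 and 2.54 CPM, 4.93 ± 1.49, edgeR, adjusted p = 0.103) and *Epcam* (0.54 ± 0.17, adjusted p = 0.113). Their summed level ran from 52.3 to 187 CPM at ZT0 (median 66.6) and from 68.7 to 926 CPM at ZT12 (median 124) in control PCs, and from 68.9 to 82.6 CPM (median 70.1) and from 63.2 to 469 CPM (median 82.0) in knockout PCs. Among the knockout ZT12 libraries replicates 5 (469 CPM) and 2 (162 CPM) were high, and the other 3 had at most 82.0 CPM. *Epcam* was the most abundant of them, at a mean of 67.2 CPM, and *Muc2* was at 0. All 10 markers were also higher at ZT12 in knockout PCs (median 2.82), and all 10 were lower in knockout than in control PCs at ZT12 (median -0.61). In the paper's flow cytometry plots, PCs were gated from live CD45+ cells that lacked CD3, CD5, B220 and IgD. The part of epithelial cells in the results was not tested. Among 6 stromal and endothelial markers *Pecam1*, which encodes CD31, was called lower at ZT12 (39.4 ± 2.84 and 27.6 ± 6.23 CPM, SD, n = 6 each, fold change -0.51 ± 0.14, adjusted p = 0.0494), a call kept in 5 of 13 other fits and without 5 of 21 libraries. *Pecam1* made up most of the list's sum (41.0 to 45.8 CPM at ZT0 and 23.5 to 38.7 CPM at ZT12), and *Col1a1*, *Col3a1* and *Dcn* were each at most 1.48 CPM in every library. The median of the list was -1.27.

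T cell and myeloid markers were low. Of 8 T cell markers none was called (median -0.49), the smallest p-values were those of *Cd8a* (-2.35 ± 1.00, edgeR, adjusted p = 0.210) and *Cd3g* (-1.26 ± 0.93, adjusted p = 0.491), and the list summed to 12.5 to 29.8 CPM, mostly *Cd4*. Between genotypes at ZT12 all 8 were higher in knockout PCs (median 1.30), none with an unadjusted p under 0.05, and their part in the differences of *Ikzf3* and *Xbp1* in that comparison was not tested. Of 8 myeloid markers none was called (median 0.14), with *Fcer1g* (0.79 ± 0.23, adjusted p = 0.0760) and *Cd68* (0.12 ± 0.20, adjusted p = 0.802) first, and a sum of 19.6 to 91.4 CPM that *Lyz2* led. Of 6 genes of cycling cells none was called (median 0.70), led by *Ube2c* (1.21 ± 0.50, edgeR, adjusted p = 0.212) and *Birc5* (0.98 ± 0.46, adjusted p = 0.265). Their sum was 32.3 to 208 CPM, and *Mki67* led it. All 6 were higher at ZT12 in control PCs, 2 with an unadjusted p under 0.05, beside 18.1% of all genes. All 6 were also higher in knockout than in control PCs at ZT0 (median 0.73) and at ZT12 (median 0.45). Of these, 1 and 0 had an unadjusted p under 0.05, beside 4.9% and 8.83% of all genes. Of 10 genes of the response to tissue dissociation none was called. In control PCs 9 were higher at ZT12 and in knockout PCs 9 were lower, and their median was 0.59 in control and -0.59 in knockout PCs, and 8 of 10 had an interaction with an unadjusted p under 0.05, all of them negative, beside 10.8% of all genes. Between genotypes at ZT12 all 10 were lower in knockout PCs (median -0.76), 9 of them with an unadjusted p under 0.05, beside 8.83% of all genes. *Zfp36* (0.38 ± 0.12, edgeR, adjusted p = 0.0937) and *Fos* (1.30 ± 0.50, adjusted p = 0.185) were first in control PCs, and the list summed to 2732 to 9365 CPM over the 21 libraries, with *Fosb* the most abundant. The highest sums were in knockout ZT0 replicate 3 (9365 CPM) and control ZT12 replicates 2 (8082 CPM) and 4 (7475 CPM), the libraries with the highest immunoglobulin shares. Control ZT12 replicates 1 (4006 CPM) and 6 (3031 CPM) lay below the control ZT0 median (4266 CPM). The other knockout ZT0 libraries had 3417 to 5008 CPM, and those of ZT12 2732 to 5221 CPM. The part of single libraries in these medians was not tested. As these are sums over bulk samples, fewer cells of a type and less RNA per cell cannot be told apart.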

How the data were processed

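RNA-seq of 21 sorted samples was used. The authors deposited raw read counts per gene, made from poly-A RNA. The aligner, counter and genome build are not given in the sources used here. The gene coordinates and exon lengths of all 9 genes equal those of GENCODE M21 (GRCm38).

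Genes with at least 10 counts in total were kept. Counts were TMM-scaled and fitted to 4 group means over all 21 libraries with robust quasi-likelihood in edgeR 4.0.16 (R 4.3.3). P-values were adjusted over all genes tested. CPM and RPKM are the deposited counts after TMM scaling, RPKM with the deposited gene length. No samples are stated to be repeats, and the paper plots the libraries as individual animals. Whether knockout ZT0 replicate 3, which held both *Xist* and Y chromosome RNA, holds RNA of 1 mouse alone was not tested. On simulated counts for control ZT12 against ZT0, edgeR recovered 162 of 200 genes changed by 1 on the log2 scale, with 5 false calls among 19626 genes. DESeq2 1.42.0 recovered 176 with 16 false calls. The simulated counts were drawn independently for each gene, without differences in immunoglobulin share or length slope between libraries, and only well-counted genes were changed. These rates therefore need not hold for the real libraries or for smaller changes.

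The 9 genes, the lists and the motifs were chosen with earlier results of these data known. Named were the 9 genes, *Arntl* and *Cd79a*, the called genes of each list or else the 2 with the smallest p in control ZT12 against ZT0, and the 2 genes most correlated with each of the 9. Other genes, chiefly those cited for their level, and the genes called between genotypes were chosen after their values were seen. Alternatives were other scalings, filters, thresholds and groups, a replicate block, covariates, removal of the length trend, and leaving out each library in turn.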

Additional observations from a re-analysis of the deposited data

Results flagged for a closer look

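Among the 36 combinations of 9 genes and 4 groups, 2 held a library far from the others of its group, both for *Prdm1* and both in replicate 1 at ZT12. Control ZT12 replicate 1 had 344 CPM, while the other 5 libraries had 226 to 247 CPM. Knockout ZT12 replicate 1 had 311 CPM, while the other 4 had 258 to 266 CPM. Each gap was larger than Dixon's limit at 95%, and chance alone passes this limit in about 1 of 20 groups. Without control ZT12 replicate 1, *Prdm1* and *Zbtb20* were called together with *Ikzf3* in control PCs. Both flagged libraries stood in the first run of columns, in which the mean of *Prdm1* was the highest of the 3 runs in each of the 4 groups. Control ZT12 replicate 2, of the same run, had 229 CPM. Whether the handling of these libraries differed was not tested.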

How the results depend on the processing

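In 13 other fits and without each of the 21 libraries in turn, *Ikzf3*, *Xbp1*, *Prdm1*, *Zbtb20* and *Irf4* kept their direction in control PCs. The number of the 9 genes called there was 4 with DESeq2 (*Ikzf3*, *Zbtb20*, *Xbp1* and *Prdm1*) and 0 with DESeq2's size factors in edgeR, without a count filter, with the 2 control groups alone, at a threshold of 0.01, with the replicate block and with the immunoglobulin share, *Xist* or gene length taken into account. It was 0 to 3 when a library was left out. Of all genes, DESeq2 called 1052 in control PCs, the control groups alone 38, the threshold of 0.01 14, the replicate block 183, the immunoglobulin share 0 and the column run, which was added after the data were seen, 545. Leaving out a library gave 31 (without control ZT0 replicate 2) to 944 (without control ZT12 replicate 1), and 15 of the 21 counts differed from the full count by more than 1.5 times. In knockout PCs DESeq2 called 47 genes and the fits without a filter or with the immunoglobulin share 1 each (leaving out a library, 0 to 1). For the interaction DESeq2 called 4 genes and the fit without the length trend 1 (0 to 1). Between genotypes DESeq2 called 5 genes at ZT0 and 8 at ZT12, and the fit without the length trend 4 at ZT0. The interaction could not be fitted with the groups of 1 comparison alone. Same-numbered libraries had correlations from -0.26 to 0.41, with 8 of 19 pairs over 0.1. These correlations cannot decide whether the numbers pair mice by cage, litter or handling, and no pairing is stated in the sources used here. Under the replicate block the log2 fold change of *Ikzf3* in control PCs was -0.38 (edgeR, adjusted p = 0.0585). Scaling by library size alone moved the median of all genes in control PCs by -0.20.

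Of the log2 fold changes listed next, that of *Ikzf1* in control PCs was -0.21 in the main fit. Changes of sign were as follows, and their cause was not tested. In control PCs these were *Pou2af1* by library size alone (-0.13) and without the length trend (-0.00096), *Ell2* with the immunoglobulin share (0.018) and without the length trend (0.030), *Ikzf1* with the share (0.093) and *Pou2f2* without the trend (0.051). In knockout PCs they were *Pou2f2* without the trend (-0.015) and, with the column run, *Xbp1* (0.031), *Ell2* (0.016) and *Pou2af1* (0.049). For the interaction they were *Irf4* (0.0022) and *Pou2af1* (0.026) by library size alone, *Ell2* with the share (-0.042) and without the trend (-0.10), and *Pou2f2* without the trend (-0.066). Between genotypes at ZT0 they were *Pou2af1* by library size alone (-0.015) and with the replicate block (-0.046), *Xbp1* with the share (-0.027), and *Ikzf3* with the share (0.076), without the trend (0.050) and with the column run (0.021). At ZT12 they were *Ell2* with DESeq2 (-0.0013), its size factors (-0.00096), the share (-0.060) and without the trend (-0.11), *Pou2af1* by library size alone (0.011), *Pou2f2* with the replicate block (-0.015) and without the trend (-0.10), *Zbtb20* with the share (-0.042) and without the trend (-0.17), and *Ikzf1* with the share (-0.074). Leaving out a library turned *Pou2f2* in control PCs (-0.14 to 0.0036), and in knockout PCs *Prdm1* (-0.093 to 0.0024), *Pou2f2* (-0.097 to 0.10), *Ell2* (-0.044 to 0.0080), *Xbp1* (-0.11 to 0.074) and *Ikzf1* (-0.018 to 0.18). It turned the interaction of *Pou2f2* (-0.021 to 0.18), at ZT0 *Ikzf3* (-0.058 to 0.052), *Pou2af1* (-0.012 to 0.14) and *Xbp1* (-0.025 to 0.16), and at ZT12 *Ell2* (-0.033 to 0.051) and *Pou2f2* (-0.11 to 0.089).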
